A study of Mus musculus with 77 samples.

Results

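The trimethyl mark on lysine 27 of histone H3 (H3K27me3) was compared between naive splenic B cells and the same kind of cell 24 h after stimulation with CpG, in mice that carry mb1-cre and a wild-type Xist gene. Members were the H3K27me3 libraries titled as WT mb1, 4 of naive cells (0 h) and 4 of stimulated cells (24 h), so 8 of the 77 samples of the series. All 8 came from CD23+ B cells of the spleens of female mice, and the genotype entry of every one is WT (mb1-cre+). Both groups therefore carry Cre expressed from mb1 (Cd79a), which is active throughout the B lineage, so nothing in the comparison differs by Cre. Naive cells went straight into CUT&RUN, and stimulated cells were cultured with 1 µM CpG for 24 h, so CpG and culture cannot be told apart. The series as a whole asks what happens to histone marks when Xist RNA is deleted, in vivo with mb1-cre or ex vivo with TAT-Cre protein, and it also holds H2AK119Ub and H3K27ac libraries. The labels call replicates biological but do not tie them to individual mice, so each p-value speaks only of the variation among these libraries.

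H3K27me3 is written by Polycomb repressive complex 2, whose catalytic subunit is Ezh2 or Ezh1, and it lies in broad domains over silent genes, above all those of developmental transcription factors. H2AK119Ub is laid down by Polycomb repressive complex 1 at many of the same places, while H3K27ac occupies the same lysine at active promoters and enhancers. On the inactive X chromosome of female cells, H3K27me3 follows Xist RNA, and in naive B cells this enrichment is known to be weak and to return on stimulation. CpG oligonucleotides are ligands of Tlr9 and drive B cells into division.

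Each deposited list gives, per peak, its place, its total signal (column 4) and its highest signal (column 5). Read depth is not known from these lists, and the scale of the signal is not shown to be shared between them. Genes were therefore compared by 3 measures taken over the gene body and 2 kb on either side. The first was whether any peak was present, the second was the length under peaks, and the third was a rank score. For the rank score, peaks of a list were ranked by total signal, the rank of the strongest peak touching the gene was capped at the length of the shortest list (2704 peaks), and the score is the log2 of the capped length over that rank, so that a doubling of the rank costs 1 and a gene outside the strongest 2704 peaks scores 0. Neighbouring genes can share a peak and then share a score.

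The identity of the cells was checked on the marks. All 8 B cell marker genes had an H3K27ac peak in every WT library at both times (3 libraries each), and none of the 8 had an H3K27me3 peak in any of the 8 libraries. Of 8 T cell markers, 2 had H3K27me3 in all libraries at 0 h and 5 at 24 h, and 1 and 2 had H3K27ac in all libraries at 0 h and 24 h. None of the 7 myeloid, 5 NK cell and 4 erythroid markers had H3K27ac in all libraries at 0 h, and at 24 h 1 NK cell marker and no myeloid or erythroid marker had. Peaks on the Y chromosome numbered 0 to 2 a library. As these are bulk samples, fewer cells carrying the mark and less mark per cell cannot be told apart.

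Stimulated cells had more H3K27me3 peaks than naive cells, and the peaks were narrower. Peaks on the autosomes and X numbered 5127, 2704, 4514 and 6043 at 0 h in replicates 1 to 4, and 15040, 8580, 7919 and 13162 at 24 h. All 24 h lists were longer than all 0 h lists, and replicates 1 and 4 were the longest at both times. The means were 4597 ± 1410 and 11175 ± 3475 peaks (SD, n = 4 each), a 2.43-fold difference, with p = 0.0286 in an exact two-sided permutation test, the smallest p that 4 against 4 allows. Adjusted over the 4 library measures (number, covered length, median width and X:autosome ratio), the permutation value was 0.0571. Without 1 naive library the exact permutation p was 0.0571 to 0.0857, and without any 1 stimulated library it was 0.0286.

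The total length under peaks was 90.02, 58.5, 79.9 and 122.4 Mb at 0 h and 191.3, 121.7, 108.9 and 209.8 Mb at 24 h. These ranges overlapped, since naive replicate 4 lay above stimulated replicates 2 and 3, and the difference of 70.2 ± 28.3 Mb (SE, n = 4 each) had an exact permutation p of 0.0857. Median peak width was 13.4, 17.4, 13.7 and 15 kb at 0 h and 8.52, 10.3, 10.3 and 10.5 kb at 24 h. The groups did not overlap (exact permutation p = 0.0286, adjusted 0.0571). The lowest highest-signal value in a list was 8 to 10 at 0 h and 5 to 6 at 24 h, on a scale that is not shown to be shared.

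Trimming every list to its 2704 strongest peaks turned the direction of the width difference. The median width was then 19.4, 17.4, 18.04 and 24.7 kb at 0 h and 26.4, 20.8, 18.8 and 31.0 kb at 24 h, 4.38 kb wider at 24 h (exact permutation p = 0.200, n = 4 each). The covered length of the trimmed lists, 66.3 ± 10.6 Mb and 78.8 ± 17.6 Mb, differed by less than its spread (exact permutation p = 0.200). Narrower peaks at 24 h are thus a statement about the whole deposited lists, not about their strongest peaks.

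**Figure D1:**
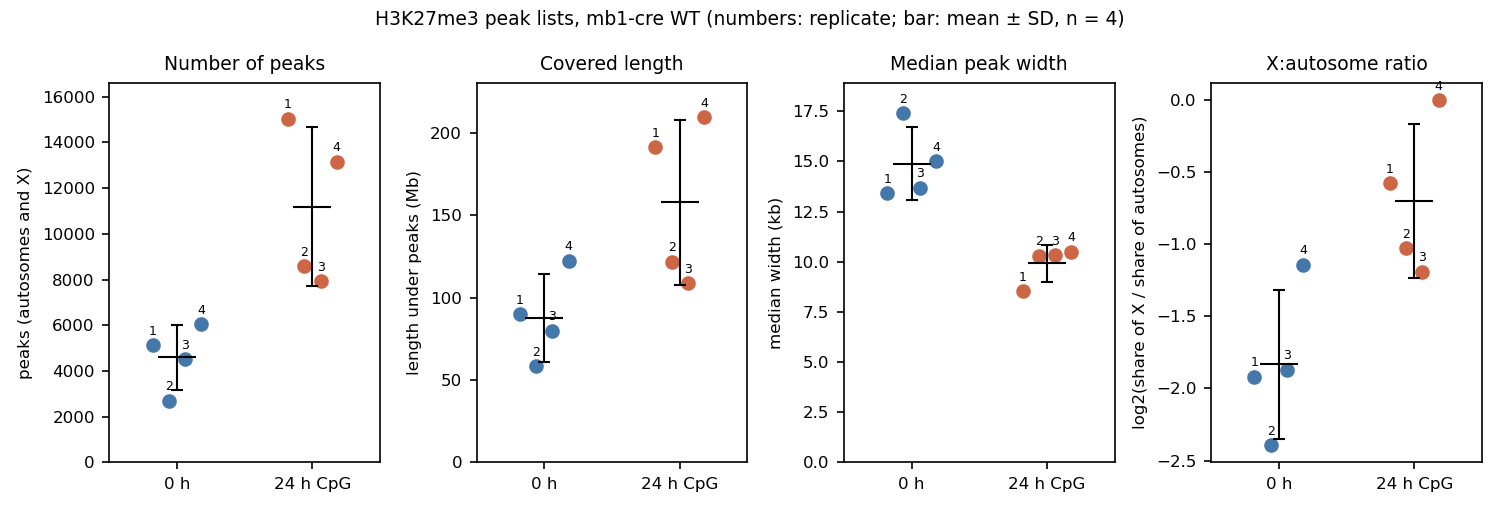
The 4 panels show, for each naive (0 h, blue) and stimulated (24 h, orange) H3K27me3 library of mb1-cre WT cells, the number of peaks, the length under peaks in Mb, the median peak width in kb and the log2 X:autosome ratio. Numbers mark replicates and bars are mean ± SD (n = 4); the groups are separate for number and width and overlap for covered length and the X:autosome ratio.

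Peaks of naive cells were kept, and the added peaks of stimulated cells lay mostly elsewhere. A median of 99.1% of the peaks of a naive list touched a peak of a stimulated list (87.9 to 99.9% over 16 pairs of lists), while 40.5% of the peaks of a stimulated list touched a naive peak (18.3 to 75.9%). Between lists of the same time the medians were 84.8% at 0 h and 84.4% at 24 h, and the stimulated lists were the longer ones. Merged over the 8 libraries, the peaks formed 14516 regions. Of these, 2282 were marked in all 8 libraries, with a median width of 34.2 kb, and 839 in all 4 stimulated libraries and no naive one, with a median of 11.9 kb. No region had a peak in all 4 naive libraries and none at 24 h, and 20 were marked in 1 to 3 naive libraries alone, against 7883 in 1 to 3 stimulated libraries alone.

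In the 2384 regions shared by all 4 naive libraries, 2371 to 2383 still held a peak in each stimulated library. The covered length per region had a median of 19.6, 17.8, 18.5 and 23.6 kb at 0 h and 23.3, 20.3, 18.99 and 24.3 kb at 24 h. Regions broken into 2 or more peaks made up 14.3, 7.38, 12.9 and 4.61% at 0 h and 21.2, 21.6, 23.0 and 10.3% at 24 h. Stimulated replicate 4, with the fewest broken regions at its time, fell within the naive range.

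The widest recurring domains held Hox clusters and other loci. The Hoxc cluster, a run of homeobox genes that pattern the body axis, had its widest peak at 255.2, 198.8, 225.1 and 269.9 kb at 0 h and 343.0, 253.5, 238.9 and 304.0 kb at 24 h (mm10 chr15:102875909-103151393 as merged over naive libraries). Stimulated values reached higher, and the groups overlapped. The widest peak over the Hoxb cluster (chr11:96100442-96446436) measured 87.5, 81.4, 96.3 and 162.9 kb at 0 h and 218.5, 160.6, 158.8 and 281.8 kb at 24 h, with medians of 91.9 and 189.5 kb. Naive replicate 4 overlapped the stimulated range there. Hoxd and Hoxa medians went from 148.1 to 177.0 kb and from 122.4 to 141.2 kb.

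A domain on chromosome 6 without protein-coding genes in the table (chr6:69924573-70065570), inside the cluster of immunoglobulin kappa variable segments, had its widest peak at 125.4, 73.0, 119.6 and 141.0 kb at 0 h and 114.5, 42.7, 55.3 and 97.9 kb at 24 h. Its medians were 122.5 and 76.6 kb, with overlapping groups, and it was among the 6 widest at 0 h only. The domain over the chitinase-like genes Chia1, Chil3 and Chil4 had medians of 195.7 and 167.2 kb. That over Lifr, the leukemia inhibitory factor receptor, had medians of 156.2 and 237.8 kb. These domains were picked for their width, so their sizes are descriptions and carry no test.

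On the X chromosome the mean covered share was higher at 24 h by a larger fold than on any autosome, from a lower level. The covered lengths of the libraries overlapped, and the numbers of X peaks did not. Peaks on X numbered 94, 33, 84 and 178 at 0 h and 755, 303, 247 and 884 at 24 h (exact permutation p = 0.0286, n = 4 each). They covered 1.62, 0.763, 1.49 and 3.74 Mb at 0 h and 8.50, 4.01, 3.22 and 13.6 Mb at 24 h. Naive replicate 4 lay above stimulated replicate 3 in covered length. The covered share of X was 1.11% at 0 h and 4.29% at 24 h, 3.85-fold, while the 19 autosomes ranged from 1.60-fold (chromosomes 3 and 17) to 1.90-fold (chromosome 8). In percentage points X gained 3.18, less than chromosomes such as 2, 9, 11 and 19. The log2 ratio of the X share to the autosome share was -1.92, -2.39, -1.87 and -1.14 at 0 h and -0.58, -1.03, -1.19 and -0.00167 at 24 h. Its difference of 1.13 ± 0.37 (SE, n = 4 each) had an exact permutation p of 0.0571, adjusted 0.0762, and did not pass. Without naive replicate 4 the difference in this log2 ratio was 1.36, with an exact permutation p of 0.0286. Without any other 1 library that p was 0.0571 to 0.0857. Counted as peaks per Mb over all 8 libraries, the difference was 1.27, with p = 0.0286 in the exact test.

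List length moved with these ratios: within each time, replicates 1 and 4 had both the longest lists and, at 24 h, the highest ratios. In lists trimmed to 2704 peaks the difference was 0.74 (exact permutation p = 0.0857), and X peaks among the strongest 2704 numbered 41, 33, 40 and 48 at 0 h and 56, 57, 53 and 80 at 24 h, without overlap (exact permutation p = 0.0286). The part of list length in the deposited ratio was not tested further. In Xist fl/fl mb1-cre cells the ratio differed by 0.23 between times (5 naive and 4 stimulated libraries, exact permutation p = 0.770), and the difference between the genotypes' CpG differences, -0.90, had an exact permutation p of 0.341.

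Along X, in 35 windows of 5 Mb, stimulated libraries lay above all naive libraries in 6 windows and below in none. The same count was not made on autosomes, and all stimulated lists were longer than all naive ones. The count is therefore not shown to be particular to X. The window that contains Xist was the most heavily marked, with 7.20, 3.76, 7.20 and 14.2% of its bases under peaks at 0 h and 34.9, 19.8, 15.3 and 50.8% at 24 h. It was covered to 4.25% in stimulated Xist fl/fl cells. The 2 windows from 135 to 145 Mb rose from means of 2.13 and 2.95% to 13.1 and 14.0%, and the window just below the Xist window from 0.938 to 11.0%. The other separate windows began at 130 and 160 Mb. In each of the 6 the exact permutation p was 0.0286, the smallest possible and not adjusted over the 35 windows, of which 7 held no peak at 24 h.

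**Figure D2:**
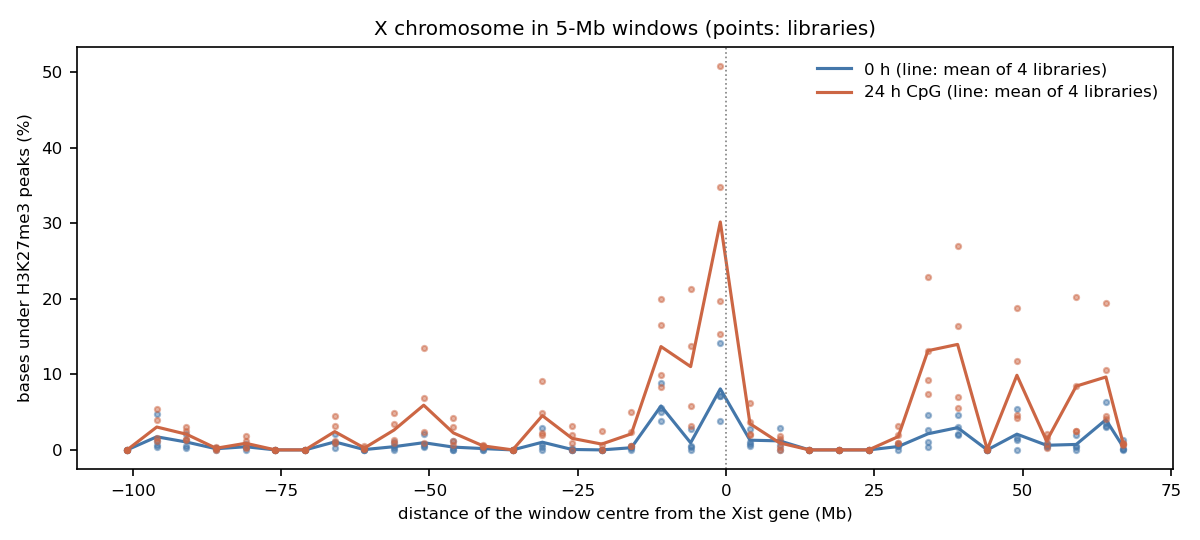
Share of bases under H3K27me3 peaks (y axis, %) in 5-Mb windows of the X chromosome, by distance of the window centre from the Xist gene (x axis, Mb), in naive (blue) and stimulated (orange) libraries. Points are libraries and lines are means of 4; the window that holds Xist reaches 15.3 to 50.8% at 24 h against 3.76 to 14.2% at 0 h.

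Xist had no peak, while Chic1 near it was marked at both times. Xist (chrX:103460373-103483233), the non-coding RNA that coats the inactive X, and its activator Jpx had no peak in any of the 8 libraries. Chic1 was covered over 31.7, 0, 33.2 and 56.7 kb at 0 h and 54.6, 50.1, 55.4 and 56.7 kb at 24 h. Of 10 matched genes of the X inactivation centre list, 5 could be tested. All 5 had a positive rank difference (against 52.9% of all genes tested), with a median of 1.47 against 0.03. In limma's test 0 of the 5 passed, and 1 was higher at an unadjusted p under 0.05 (against 9.29% of all genes tested). Only 43 of the 4263 genes tested lay on X, and 0 of them passed in limma, against 0.563% of all tested.

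Of 28 X-linked immune genes, 2 had a peak in some naive library and 7 in some stimulated one, and none in all 4 of either. The mean share over libraries was 2.68% at 0 h and 8.04% at 24 h, against 7.27 and 21.2% of X-linked protein-coding genes. The 7 were Tlr8, Cfp, Il13ra1, Msn, Vsig4, Gpr174 and Cd40lg. Tlr7, the RNA-sensing Toll-like receptor, the chemokine receptor Cxcr3 and the B cell kinase Btk had no H3K27me3 peak in any library, nor had Kdm6a and Ddx3x, which escape X inactivation. Cd40lg had a peak in stimulated replicate 4 alone, covering 7.05 kb. The escape genes Ftx and Kdm5c had peaks in naive replicate 4 and stimulated replicates 1 and 4, the libraries with the longest lists. Ogt, an X-linked O-GlcNAc transferase transcribed in most cells and singled out after its values were seen, had no peak at 0 h and was covered over 6.33, 2.61, 4.65 and 11.6 kb at 24 h.

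By rank score, 24 of 4263 genes (0.563%) passed limma's test at an adjusted p of 0.05, 20 lower at 24 h (0.469% of those tested) and 4 higher (0.0938%). With replicate number as a block, a pairing that the labels do not give, 0 of the 4263 passed. The lower genes include Atf3, Nr4a3, Il7r and Rgs13, along with zinc finger, vomeronasal receptor and metabolic genes. The 20 lower genes fell in 14 groups that share a strongest peak, 5 were long non-coding or predicted, and 4 lay on chromosome 17. On the log2 share of autosomal signal, where the median over all genes was 0.68, the split was instead 825 higher and 378 lower, by signal per base 16 and 22, and by highest signal 2 and 3. Without adjustment, 396 genes were higher (9.29%) and 361 lower (8.47%) at p under 0.05 in limma, and the median difference over all tested genes was 0.03. The score has a floor at 0, and 10 of the 20 lower genes were at 0 in 3 or all of the stimulated libraries, while 3 of the 4 higher genes were at 0 in 3 or all of the naive ones. Of the 20, 8 were at 0 in all 4 stimulated libraries: they entered the test through the naive libraries alone and have no spread at 24 h, so their p adds nothing to their ranks. Leaving out 1 library at a time gave between 3 and 29 called genes: 3 without stimulated replicate 1 or 2, 4 without naive replicate 1 or 3, 29 without naive replicate 4, 6 without stimulated replicate 4, 12 without naive replicate 2 and 14 without stimulated replicate 3.

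**Figure D3:**
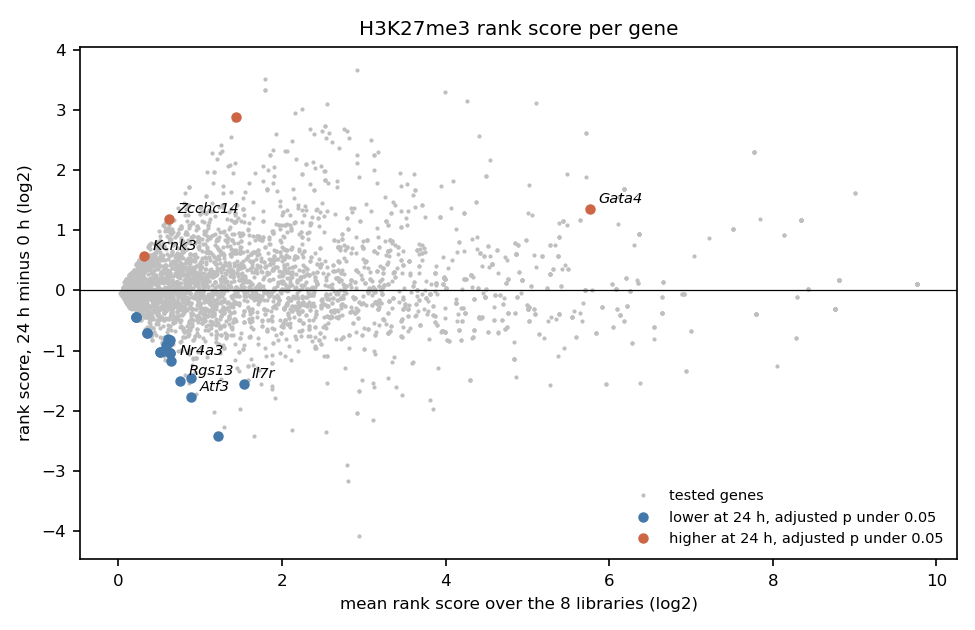
Difference in rank score between 24 h and 0 h (y axis, log2) against the mean rank score over the 8 libraries (x axis, log2) for 4263 genes, 1 point per gene. The 20 genes lower at an adjusted p under 0.05 (blue) have mean scores of 0.218 to 1.53, and of the 4 higher (orange) Gata4 stands at 5.77.

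Atf3 encodes a stress-induced transcription factor of the ATF and CREB family (chr1:191170296-191183333). Its strongest peak ranked 811, 836, 727 and 785 in naive libraries and 5077, none, 3282 and 5521 in stimulated libraries, where "none" means no peak. Every naive library ranked it above every stimulated one. The rank score differed by -1.78 ± 0.14 (SE, n = 4 each; limma, adjusted p = 0.00204). It was 0 in all 4 stimulated libraries, so this p adds nothing to the ranks. The gene was covered over 12.04 to 14.6 kb at 0 h and over 8.50, 0, 7.31 and 7.78 kb at 24 h. H3K27ac at Atf3 was present in 0 of 3 naive and 3 of 3 stimulated libraries. In Xist fl/fl cells its score differed by -1.43 (limma, adjusted p = 0.0145).

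Nr4a3 encodes an orphan nuclear receptor induced by antigen receptor and other stimuli (chr4:48045078-48086447). Ranks were 1137, 1278, 1088 and 1112 at 0 h and 2554, 2833, 2415 and 2822 at 24 h, without overlap (difference -1.17 ± 0.12, limma, adjusted p = 0.0139). Its covered length did not move with its rank, at 21.7, 13.2, 18.1 and 31.9 kb at 0 h and 23.0, 14.5, 11.8 and 25.2 kb at 24 h. H3K27ac was present in all 3 libraries at both times, and its rank score differed by -0.85 (limma, adjusted p = 0.00334).

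Il7r encodes the receptor chain for interleukin 7, used by B cell progenitors and T cells (chr15:9506159-9529941). Ranks of 512, 480, 525 and 679 at 0 h went to 1543, 1657, 1199 and 2190 at 24 h (difference -1.56 ± 0.24, limma, adjusted p = 0.0467). The ranked peak was 30.8, 31.5, 31.1 and 30.5 kb wide at 0 h and lay mostly outside the gene window. It covered 5.86, 6.92, 6.36 and 5.29 kb of the window at 0 h and 6.93, 1.43, 0.099 and 4.22 kb at 24 h. These lengths overlapped and did not pass (limma, adjusted p = 0.346). By rank, Il7r was the only T cell marker of the 5 tested to pass, and 2 of the 5 had positive differences. H3K27ac was present in 0 of 3 and 3 of 3 libraries, and the H2AK119Ub score differed by -2.80 (limma, adjusted p = 0.00797).

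Rgs13 encodes a regulator of G protein signalling known from germinal centre B cells (chr1:144137386-144177372). Ranks were 640, 1105, 1448 and 808 at 0 h and 4963, none, none and 5573 at 24 h. Covered length was 22.8, 21.9, 17.5 and 22.2 kb at 0 h and 13.9, 0, 0 and 16.2 kb at 24 h, so 2 of 4 stimulated libraries kept a shorter domain. The score differed by -1.504 ± 0.25 (limma, adjusted p = 0.0497). It was again 0 in all 4 stimulated libraries, so this p adds nothing to the ranks. The H2AK119Ub score differed by -5.34 (limma, adjusted p = 0.000124).

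The remaining lower genes named by rule were Zfp442 and Zfp811 (zinc finger proteins), Ahcyl2, Cfdp1, the vomeronasal receptor Vmn1r233, Scfd2, the mitochondrial folate enzyme Aldh1l2, and Lrba, which shares its peak with Mab21l2. Their differences ran from -0.44 (Lrba) to -1.45 (Cfdp1), each without overlap between the groups. Cfdp1 ranked 867, 910, 825 and 940 at 0 h and 2724, 2634, 1766 and 2717 at 24 h. Over all 4263 genes, 314 (7.37%) had all stimulated libraries below all naive ones and 239 (5.61%) the reverse. With uncapped ranks 14 genes passed, 6 of them among the 24, and Il7r missed (limma across all genes, adjusted p = 0.0504). With ranks by highest signal 5 passed, 1 of them among the 24, and Atf3 and Il7r (limma across all genes, adjusted p = 0.0595 each), Nr4a3 (0.188), Cfdp1 (0.271) and Zfp811 (0.173) missed. By signal per base Atf3 passed (limma across all genes, adjusted p = 0.0207), while Nr4a3 (0.184) and Il7r (0.0891) missed. The 12 lower genes named here kept their direction in each alternative that tested them.

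**Figure D4:**
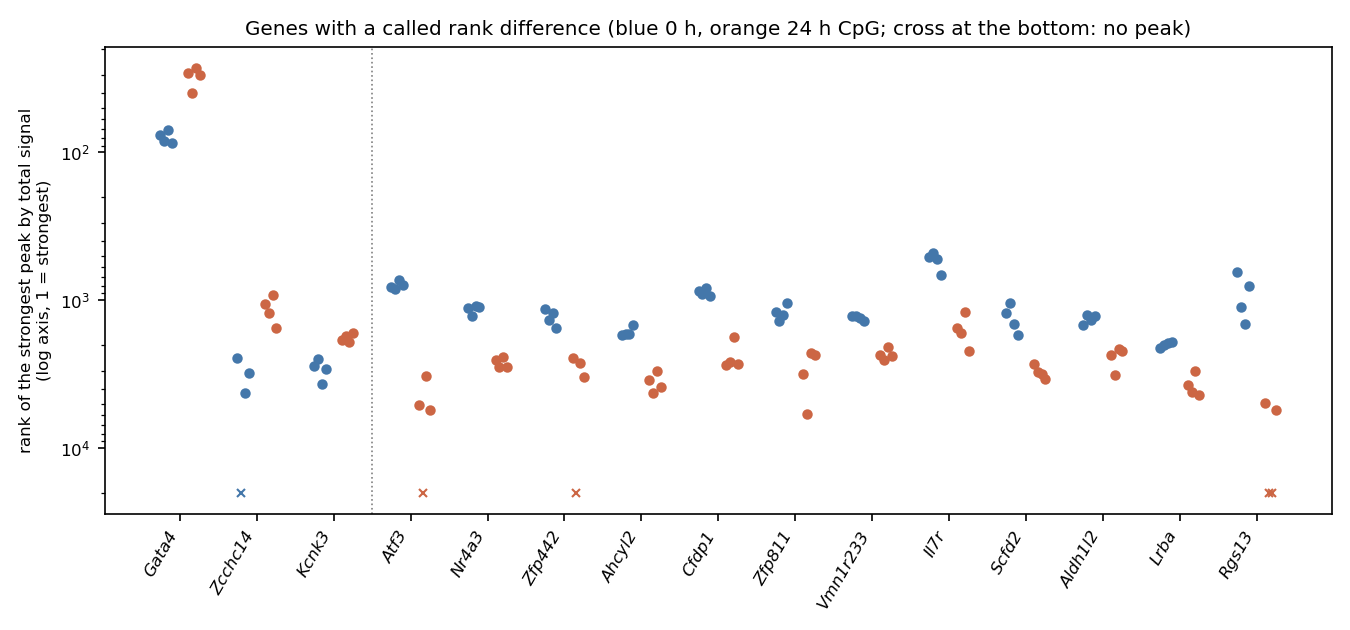
Rank of the strongest H3K27me3 peak by total signal (y axis, log scale, 1 = strongest) at the 3 protein-coding genes called higher and 12 called lower, in each naive (blue) and stimulated (orange) library. Crosses at the bottom mark libraries with no peak; at Atf3 naive ranks are 727 to 836 and stimulated ranks 3282 to 5521 or none.

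Promoter sequences show which kinds of start sites these genes have. The 250 bases before the start that the RefSeq promoter table uses (GRCm38.p6, 5′ to 3′ on the gene's strand) are given for 4 lower genes, with CG dinucleotides in capitals, because H3K27me3 in vertebrates favours promoters rich in them.
Atf3: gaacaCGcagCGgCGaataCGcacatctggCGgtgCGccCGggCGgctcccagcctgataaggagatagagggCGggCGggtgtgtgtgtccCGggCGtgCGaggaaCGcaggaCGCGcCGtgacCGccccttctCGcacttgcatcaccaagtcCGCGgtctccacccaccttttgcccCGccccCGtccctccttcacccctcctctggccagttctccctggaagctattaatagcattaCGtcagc
Nr4a3: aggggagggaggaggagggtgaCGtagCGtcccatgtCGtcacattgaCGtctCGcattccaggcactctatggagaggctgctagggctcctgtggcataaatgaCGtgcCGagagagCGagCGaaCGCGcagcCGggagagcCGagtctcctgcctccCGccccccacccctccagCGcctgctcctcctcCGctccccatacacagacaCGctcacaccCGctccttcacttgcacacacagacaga
Il7r: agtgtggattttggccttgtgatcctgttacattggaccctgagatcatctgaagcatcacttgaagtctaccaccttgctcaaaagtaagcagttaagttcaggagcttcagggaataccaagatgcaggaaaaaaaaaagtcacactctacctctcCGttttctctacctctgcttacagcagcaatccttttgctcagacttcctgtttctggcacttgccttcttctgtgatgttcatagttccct
Rgs13: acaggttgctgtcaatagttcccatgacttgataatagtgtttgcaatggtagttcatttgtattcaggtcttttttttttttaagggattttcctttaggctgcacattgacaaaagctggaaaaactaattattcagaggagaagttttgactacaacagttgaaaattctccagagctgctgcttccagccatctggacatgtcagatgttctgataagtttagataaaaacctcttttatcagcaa
The Atf3 window (chr1:191183334-191183583, minus strand) holds 24 CG dinucleotides and lay under a peak in 4 naive and 3 stimulated libraries. The Nr4a3 window (chr4:48045055-48045304, plus strand) holds 18 and lay under a peak in 4 and 3. The Il7r window (chr15:9529877-9530126, minus strand) holds 1 and went from 4 to 2 libraries, and the Rgs13 window (chr1:144177373-144177622, minus strand) holds 0 and went from 4 to 0. The first start listed for each gene was used, and at Nr4a3 and Il7r it lies inside the outermost bounds of the gene given above. Lower genes thus included CG-rich and CG-poor starts. The median number of CG in this window was 9.5 over the 18 lower genes with an entry, 10.0 over the 3238 tested genes with one and 6.0 over all 26794 promoters. The letters TGACGT, a half-site of the cyclic AMP response element, were searched on both strands after the sequences had been read. They occur 3 times in the Nr4a3 window, once in the Atf3 window and not in the Il7r and Rgs13 windows, and in 6.61% of all promoter windows of this length. Promoter windows under a peak made up 7.77 to 14.8% of all in naive and 15.1 to 21.4% in stimulated libraries.

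The higher genes were Gata4, Zcchc14, Kcnk3 and the long non-coding Gm38426. Gata4, a transcription factor of heart and endoderm (chr14:63198914-63271712), ranked 76, 84, 71 and 87 at 0 h and 29, 40, 27 and 30 at 24 h (difference 1.35 ± 0.19, limma, adjusted p = 0.0322). Its covered length was 63.6, 46.3, 48.0 and 67.6 kb at 0 h and 76.8, 64.6, 61.0 and 76.8 kb at 24 h. Ranked by signal per base, its difference was -1.003 and by highest signal -0.19, neither called in limma. On the log2 share of autosomal signal it was called in the opposite direction, at -0.33 (limma, adjusted p = 0.0118), so its higher place holds for the rank by total signal alone among these 4 scales. Zcchc14 ranked 2473, none, 4255 and 3130 at 0 h and 1060, 1228, 919 and 1536 at 24 h, and its covered length went from 2.03, 0, 2.25 and 1.93 kb to 17.7, 8.98, 6.96 and 14.2 kb. Kcnk3, a potassium channel, ranked 2798, 2484, 3661 and 2902 at 0 h and 1853, 1744, 1904 and 1656 at 24 h. It also had a negative difference by signal per base (-0.91) and by highest signal (-0.63).

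The next higher genes named by rule, which did not pass (adjusted limma p of 0.0710 to 0.0737), were Phf24, Cntnap2, Lmx1b, Pdgfa, Tdrp, Aqp2, Amotl2 and Tgfa. Lmx1b, a homeobox gene of limb and brain, ranked 216, 234, 213 and 239 at 0 h and 109, 65, 81 and 127 at 24 h.

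By covered length, changes ran almost wholly upward in the deposited lists. Of 7828 genes, 783 were higher (10.0%) and 8 lower (0.102%) at an adjusted limma p of 0.05, and the median difference over all tested genes was 0.81 on the log2(kb + 0.5) scale. Covered length has a floor at 0 kb. The 659 genes with a peak in no naive and all 4 stimulated libraries met the filter through the stimulated libraries alone. They have no spread at 0 h, so their p adds nothing to the presence of their peaks. Their share of the 783 was not counted. In lists trimmed to 2704 peaks the filter left 4263 genes, and the split was 28 higher (0.657%) and 42 lower (0.985%). As fewer genes were tested there, this split does not follow the 783 calls. The part of list length in them was not tested. In the deposited lists without 1 stimulated library, the count of calls fell to 10 (replicate 1), 25 (replicate 2), 60 (replicate 3) or 15 (replicate 4). Without naive replicate 4 it rose to 1438.

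The 8 lower genes went against that direction. Ccnd2, which encodes the cyclin D2 that drives B cells from rest into the cell cycle (chr6:127125162-127152188), was covered over 7.10, 6.43, 3.22 and 6.35 kb at 0 h and 1.83, 1.51, 1.55 and 0.927 kb at 24 h. The groups did not overlap (log2 difference -1.65 ± 0.27, limma, adjusted p = 0.00749). H3K27ac at Ccnd2 was present in 0 of 3 naive and 3 of 3 stimulated libraries. Nedd4, a ubiquitin ligase, was covered over 5.27, 5.37, 2.21 and 4.92 kb at 0 h and 0, 0, 0 and 0.740 kb at 24 h (limma, adjusted p = 0.00298). It met the filter through its naive libraries and was at the floor in most stimulated ones, so this p adds little to the lengths.

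Rala, a small GTPase, had 0.848 to 2.04 kb covered at 0 h and at most 0.043 kb at 24 h. Uck2, a uridine-cytidine kinase, went from 5.06 to 7.78 kb down to 2.72 to 4.34 kb. Ncapd3, a condensin II subunit, went from 6.61 to 7.88 kb down to 4.34 to 6.03 kb. Of the 8 lower genes, 4, among them Ccnd2, Nedd4 and 9330179D12Rik, gained H3K27ac from 0 of 3 to 3 of 3 libraries, as did 3 of the 20 genes lower by rank (Atf3, Il7r and Gm12576). The share over all genes tested was 2.73% by covered length and 2.58% by rank. No p is given for these counts.

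Genes with a peak in no naive and all 4 stimulated libraries numbered 659 of the 12353 with a peak in any library (5.33%), and 0 genes went the other way. Trimmed to equal length, 27 genes (0.439%) gained and 39 (0.635%) lost their place. Among the 659, 24 lay on X (3.64%), against 3.37% of genes with a peak in any library. The count was 1185 without naive replicate 4 and 1132 without stimulated replicate 3. Naive lists end at 2704 to 6043 peaks, and a peak below the reach of a naive list and a peak absent from naive cells cannot be told apart.

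Bcl11b, a transcription factor of T cell commitment (chr12:107910403-108004145), had no naive peak and 18.7, 16.5, 18.01 and 17.5 kb covered at 24 h, with ranks of 3663, 2974, 3059 and 4849. Kcna1, a potassium channel, had 8.96, 9.11, 8.54 and 9.37 kb, and Th, tyrosine hydroxylase, 8.29, 7.93, 7.75 and 7.56 kb, again with none at 0 h. Mesp2, a regulator of somite segmentation, ranked 3216, 3113, 2308 and 4013 at 24 h. Longer gains were on X: Frmpd4 was covered over 85.0, 11.9, 12.4 and 278.8 kb at 24 h. Gucy2f and Nhs on X and the autosomal Insc, Myo16, Scara5 and Slc35f3 had the same pattern of presence. In these 3 X genes stimulated replicates 1 and 4 were above replicates 2 and 3.

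Developmental Polycomb targets, a list of 112 genes, carried H3K27me3 in both states. All 112 had a peak in at least 1 library at each time, 107 in all 4 naive and 112 in all 4 stimulated libraries. Of 109 tested by rank, 78 had a positive difference (71.6%, against 52.9% of all genes tested), and the median was 0.20 against 0.03. In limma 1 passed as higher (Gata4, against 0.0938% of all genes tested) and 0 as lower (against 0.469%). Genes of a domain can share a peak and its score, as the listed Hoxd genes do, so the 109 are not independent. Ranks of the list were compared by total signal alone, and the call of Gata4 did not hold on the other scales. By covered length 2 of the 112 rose, against 10.0% of all genes, and the list's median difference was 0 against 0.81. Covered length ends at 2 kb beyond the gene, so a gene already covered throughout at 0 h could not rise. This contrast is therefore not read as a result about the list. By rank, at an unadjusted limma p under 0.05, 20 were higher (18.3%, against 9.29%) and 3 lower (2.75%, against 8.47%). Wnt1 and Wnt10b, both among these 3, have the same difference. Sox1, a neural transcription factor, ranked 577, 829, 453 and 564 at 0 h and 278, 249, 190 and 329 at 24 h, without overlap and without passing (limma, adjusted p = 0.0887). Gbx2 ranked none, none, 2102 and 1738 at 0 h and 1131, 1077, 879 and 1389 at 24 h.

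None of the 34 follicular and mature B cell genes and none of the 15 autosomal housekeeping genes had an H3K27me3 peak in any library, so the longer stimulated lists did not reach them. Of 41 B cell activation genes, 7 had a peak in some naive library and 11 in some stimulated one. By rank 0 of 4 tested passed in limma, against 0.563% of all genes tested (1 in each direction at an unadjusted p under 0.05). In covered length 3 of 8 tested rose, against 10.0% of all genes tested. The 3 were Egr2, Fos and Fosb, immediate early transcription factors, named after their values were seen. Each had no naive peak and entered the test through its stimulated libraries alone, at ranks of 4585 to 9613, covering 9.10, 3.6, 4.81 and 3.6 kb at Egr2, 3.91, 3.91, 4.67 and 2.00 kb at Fos and 6.75, 6.49, 8.42 and 9.03 kb at Fosb. At Fos and Fosb H3K27ac was in 0 of 3 libraries at both times and H2AK119Ub in 3 of 3 at both.

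Bcl2l1, the survival gene that encodes Bcl-xL, had ranks of 170, 190, 163 and 185 at 0 h and 244, 2458, 1175 and 391 at 24 h, without overlap and without passing (limma, adjusted p = 0.177). The cytokine gene Il10, also singled out afterwards, had a peak in naive replicates 1, 3 and 4 and in stimulated replicate 4, and H3K27ac went from 0 to 3 of 3 libraries. Prdm1, the regulator of plasma cell fate, ranked 2018, 2129, 2195 and 1519 at 0 h and 2656, 2936, 2429 and 3241 at 24 h (limma, adjusted p = 0.157). Of the 29 cell cycle and ribosome genes, 1 of 6 tested fell in covered length, Ccnd2, against 0.102% of all genes tested. Ccnd1 and Cdkn2a kept their peaks in all 8 libraries, with Cdkn2a ranked 18 to 45.

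Among the other lists, 0 of 6 tested Polycomb complex genes and 0 of 9 tested imprinted genes passed by rank in limma (0 and 1 at an unadjusted p under 0.05). The share that passed over all genes tested was 0.563%. Cbx8, a Polycomb repressive complex 1 subunit, was itself marked in every library, ranked 162 to 210 at 0 h and 198 to 294 at 24 h. The share of genes with a peak went from 38.5 to 58.7% of 26 genes in imprinted or non-coding RNA domains, from 32.5 to 52.5% of 20 T cell markers and from 33.3 to 52.8% of 18 myeloid markers, against 16.4 to 27.6% over all 34324 genes. Of 34 X-linked broadly transcribed genes, 2.94% had a peak at 0 h and 14.0% at 24 h.

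**Figure D5:**
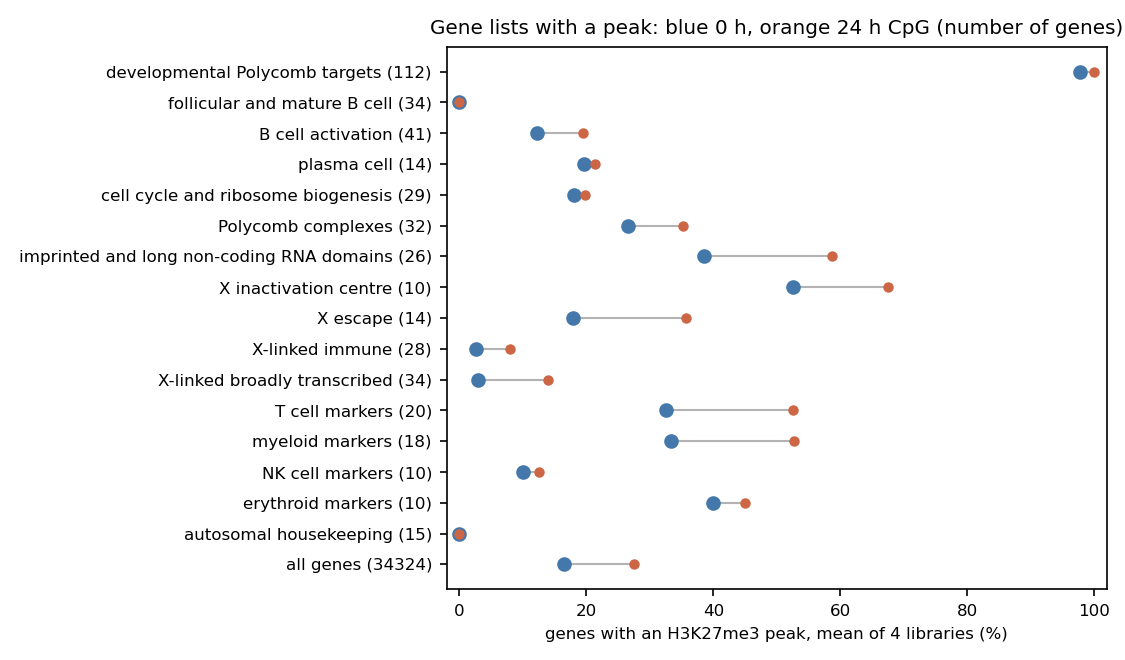
Share of the genes of each list with an H3K27me3 peak (x axis, %, mean over 4 libraries) in naive (blue) and stimulated (orange) cells, with the number of genes in brackets. Developmental Polycomb targets stand at 97.8 and 100%, follicular B cell and housekeeping genes at 0, and all genes at 16.4 and 27.6%.

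The same comparison was made in other cells of the series. In mb1-cre Xist fl/fl cells (5 naive, 4 stimulated), whose libraries are separate from the WT ones, 17 genes were lower (0.467% of 3642) and 8 higher (0.22%). Of the 20 genes lower in WT, 15 could be tested there, 15 had the same sign and 8 passed in limma, with a median of -0.78 against 0.05 over all genes. The 20 fell in 14 groups that share a strongest peak. Counts of these genes, here and for TAT-Cre and H2AK119Ub below, can therefore take 1 peak more than once. One naive Xist fl/fl library, replicate 5, has a treatment entry of stimulated, and without it 63 genes passed, 32 higher and 31 lower. Leaving out 1 other library gave 0 (naive replicate 3, stimulated replicates 2 and 4), 1 (stimulated replicate 3), 8 (naive replicate 2, stimulated replicate 1), 11 (naive replicate 4) or 39 (naive replicate 1). In the fit of the difference between genotypes 0 of 4266 genes passed (limma; at an unadjusted p under 0.05, 49 were higher, 1.15%, and 53 lower, 1.24%).

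In the WT ex vivo system only the stimulated cells were given 80 µg TAT-Cre for 45 min before CpG, and the naive cells had none. CpG, culture and TAT-Cre therefore cannot be told apart there. In limma with 3 libraries a group, 0 of 4429 genes were higher and 2 lower (0.0452%) at 24 h. Of the 20 genes lower in mb1-cre WT, 16 were tested and 16 had the same sign, with a median of -0.78 against 0.11, and none of them passed. Their peak lists went the other way, at 3885, 13234 and 18954 peaks in naive cells and 5764, 3959 and 5010 in stimulated ones (exact permutation p = 0.400). The difference in peak number between stimulated and naive cells differed between the systems by 13692 peaks (exact permutation of the system within each time, p = 0.0049, adjusted over 6 comparisons 0.0294). In Xist fl/fl cells the difference was 7006 peaks against 6578 in WT (exact permutation p = 0.853).

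Of the other marks in mb1-cre WT cells (3 libraries a time), H2AK119Ub changed rank at far more genes, 804 higher (23.4% of 3433) and 545 lower (15.9%) in limma, and between 501 and 972 in all when 1 library was left out. Of the 20 genes lower by H3K27me3, 16 were tested for H2AK119Ub, 15 had the same sign and 11 passed, with a median of -2.002 against 0.29 over all genes. Atf3 was the exception in sign, at 0.86 (limma, adjusted p = 0.169). H3K27ac had 678 higher (16.3% of 4161) and 890 lower (21.4%). Only 3 of the 20 were ranked in H3K27ac, and 1 of these had the same sign as its H3K27me3.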

How the data were processed

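Each of the 8 libraries was a CUT&RUN peak list. Peak tables of 6 columns were deposited by the authors, with total signal in column 4 and highest signal in column 5. Per the submitters' processing notes, Trimmomatic 0.32, Bowtie2 2.3.4.1, Picard and deepTools 3.5.1 were used with mm10. For the peak caller, version, control track and spike-in use are each not given in the sources used here. Read depth is unknown.

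Peaks on 19 autosomes and X were kept, and other sequences held 0.258 to 0.726% of a list. A gene was marked when a peak touched its body or 2 kb on either side by 1 base or more (34324 RefSeq genes, GRCm38.p6). Rank score and covered length, log2(kb + 0.5), were tested with limma 3.58.1 in R 4.3.3 (moderated, with an intensity trend, Benjamini-Hochberg adjusted, threshold 0.05) in genes above 0 in 4 or more of 8 libraries, or 3 of 6 for the other sets of 3 against 3. Library measures had exact two-sided permutation tests. The test was first tested on simulated data.

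Named were up to 12 protein-coding genes a direction by rank, 8 a direction by covered length and 4 by list, in order of p, plus 6 widest domains a time and 10 fixed genes. The members and the 16 lists were chosen with earlier results of these data known. Alternatives were other filters, scalings, overlaps, list trimming, replicate blocks and leaving out each library. Some genes that the rule names are not reported here.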

Additional observations from a re-analysis of the deposited data

Results flagged for a closer look

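The difference in peak number between stimulated and naive cells differed between mb1-cre WT and TAT-Cre WT cells by 13692 peaks (exact permutation, p = 0.0049, adjusted over 6 comparisons 0.0294). In the TAT-Cre system only the stimulated cells had been given TAT-Cre. This test was chosen after the data were seen.

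In 8 of 66 groups tested, 1 library was flagged by its gap to the next value as a share of the range. The rule flags any group whose other libraries are all at the score's floor of 0, however small the gap. This was so at Zcchc14, Kcnk3 and Scfd2. Groups at 0 throughout were counted but could not be flagged. The usual chance rate of 1 in 20 therefore does not hold for these scores. The median peak width of stimulated replicate 1, 8.52 kb, lay below 10.3 to 10.5 kb in the other 3. The other 7 were rank scores. At 24 h, the highest score was 0.139 at Zfp442, 0.615 at Cfdp1 and 0.00213 at Scfd2, with the other 3 libraries at or near 0. At 0 h it was 0.129 at Zcchc14 and 0.123 at Kcnk3, with the others at 0. The highest naive score was 0.378 at Tgfa and 0.872 at Ahcyl2, where the others were 0.644 to 0.672.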

How the results depend on the processing

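The main limits are list length, which differs between the times, and the floor of the rank score. The peak number difference of 6578 had p = 0.125 with a replicate block, the smallest that exact test allows, and 5290 to 7664 peaks without 1 library. Median width differed by -3.54 kb in the upper part of each list by highest signal (exact permutation p = 0.0857), by 4.38 kb in trimmed lists and by -4.96 kb with the block (exact p = 0.125), and by -5.45 to -4.12 kb without 1 library. The X:autosome difference was 1.27 by number of peaks and 0.90 to 1.36 without 1 library.

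Genes called by rank score numbered 9 with no filter beyond 1 library, 7 with robust limma, 14 with uncapped ranks, 5 by highest signal, 38 by signal per base, 1203 on the share of autosomal signal and 3 to 29 without 1 library. With the replicate block 0 passed in limma (770 at an unadjusted p under 0.05). Same-numbered libraries correlated at 0.02, 0.16, 0.11 and 0.33, and each naive library correlated best with the stimulated library of its own number. Stimulated replicate 1 correlated best with naive replicate 4 (0.05). The labels do not tie numbers to mice, so the main fit did not pair samples by number. A pairing is not excluded by these values, and the calls by rank score depend on that choice. Calls by covered length were 70 in trimmed lists, 787 with the block and 10 to 1438 without 1 library. Genes gaining a peak numbered 27 in trimmed lists and 664 to 1185 without 1 library. Genes losing one numbered 39 in trimmed lists, 1 with an overlap of 500 bp, 2 in the upper part of the lists and 0 to 3 without 1 library.

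In Xist fl/fl cells 0 genes passed with the block in limma (789 unadjusted), 63 without naive replicate 5 and 0 to 39 without 1 other library. In TAT-Cre WT cells 0 passed with the block (433 unadjusted) and 0 to 5 without 1 library. H2AK119Ub gave 501 to 972 and H3K27ac 901 to 1168 without 1 library. Gata4 reversed by highest signal (-0.19), per base (-1.003) and on the share of autosomal signal (-0.33, called lower in limma, adjusted p = 0.0118), and Kcnk3 by highest signal (-0.63) and per base (-0.91). The causes were not tested. Over 18 alternatives the 24 genes called by rank have 389 values, of which 142 kept the call and 384 the direction. The other 5 are these reversals.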
